A study of Drosophila melanogaster with 3 samples.

Results

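The genes described here build, modify or degrade the chitin-based cuticle and the apical extracellular matrix of *Drosophila* epithelia. They were taken by name from the deposited expression table as every row whose symbol starts with *Cpr*, *Lcp*, *Ccp*, *Pcp*, *Twdl*, *obst-*, *Cht*, *Edg* or *Idgf*, or equals *Gasp*, *kkv*, *serp*, *verm*, *knk* or *dp*. The rule found 154 of 15603 genes. Of these, 80 were above 1 FPKM (a level per transcript length and per library size) in at least 1 of 3 libraries and are described, 44 were above 5 FPKM, 37 lay above 0 but at or under 1 FPKM, and 37 were listed at 0 in all libraries. *TwdlBeta* at 0.971 FPKM and *Cpr64Ad* at 0.980 FPKM lay just outside the filter, and *Cpr78Cb* at 1.02 and *obst-I* at 1.06 FPKM just inside. One row, *Cpr* (FBgn0015623), is NADPH-cytochrome P450 reductase, an enzyme of the endoplasmic reticulum that matches the rule by its letters only. It was at 38.3 FPKM in tumor, 23.8 in TME and 24.1 in control cells.

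RNA came from sorted cells of the eye-antennal disc (EAD), the larval tissue that forms the eye, antenna and head capsule, with 50 discs of wandering larvae at Day 6 behind each library. The tumor library holds GFP+ cells of *Ras*V12; *scrib*-/- tumors. In these discs *ey-flp* made mosaic clones on the *Frt82B* chromosome arm that were homozygous for *scrib2*, had lost *tubGal80* and therefore expressed *UAS-RasV12* and *UAS-GFP* under *Act>y+>Gal4*, in a *y, w* background. The TME (tumor microenvironment) library holds GFP- cells of discs of that same genotype, which may be any unlabeled cell attached to the disc. The control library holds GFP+ cells of *GMR>GFP* discs, in which GMR is active behind the morphogenetic furrow, where the retina differentiates. The control is thus a region of the disc, whereas tumor clones may lie anywhere in it, and a difference of region and a difference of genotype cannot be told apart. Of the table's headings, those of the tumor and the TME are dated and that of the control is not. The labels put all libraries in a single batch.

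Insect epithelia secrete chitin, a polymer of N-acetylglucosamine, from a membrane-bound synthase at the apical surface. Secreted deacetylases and chitin-binding proteins arrange the fibres, cuticle proteins with the Rebers-Riddiford (CPR) domain or the Tweedle domain bind them, and giant zona pellucida (ZP) domain proteins such as Dumpy anchor the cell surface to the matrix above. Chitinases and hexosaminidases break the old matrix down at molts. The imaginal disc epithelium carries an apical matrix during larval life and lays down cuticle only after pupariation, under pulses of the steroid hormone ecdysone. Idgf proteins (imaginal disc growth factors) are relatives of chitinases that have lost catalytic activity, act as secreted growth factors on disc cells in culture and are made by fat body, hemocytes and other tissues.

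The depth of the libraries, estimated from the steps in which low FPKM values move, came to about 1815000 fragments (tumor), 10954000 (TME) and 1747000 (control). A transcript of 2000 nt at 5 FPKM then has about 16.7, 102 and 16.3 fragments in the same order, and one of 600 nt at 1 FPKM has 0.808, 5.15 and 0.821. With 1 library per group there was no replicate check, and no p-value, SD or SE was computed. Intervals are exact 95% Clopper-Pearson intervals of a ratio from these fragments. They cover counting error only and compare libraries, not conditions. For each pair of libraries, a gene was called when the greater value exceeded 5 FPKM and the ratio reached 2. As a check of the labels, *Ras85D*, the gene that gave the RasV12 transgene, stood at 327 FPKM in tumor, 118 in TME and 139 in control cells. *scrib*, mutant in the clones, was at 51.0, 44.6 and 36.2 FPKM and so not low in the tumor, and the RNA of a mutant allele need not be low. All 6 eye disc markers were present in each library, among them *toy* at 120, 94.3 and 81.6 FPKM and *ey* at 66.0, 42.1 and 37.4. Of the marker lists, 10 of 12 hemocyte genes were lower in tumor than in control cells, and 5 of 7 neuron and photoreceptor genes and 3 of 8 fat body genes were lower than in the control in both the tumor and the TME. Of 6 muscle genes, 1 was higher and 2 were lower in tumor than in control cells, and of 4 glia genes 1 was higher and 1 lower. Of the 10444 genes above 1 FPKM in a library, 9.45% were higher and 15.5% lower in tumor than in control cells. In the TME 11.6% of them were lower than in the control. The lists of 4 and 6 genes are too short to set against these shares. In bulk samples such as these, fewer cells of a type and less RNA per cell cannot be told apart.

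Many genes of cuticle and matrix were higher in the libraries from tumor-bearing discs than in the control. Of the 80 members, 24 (30%) were higher in tumor than in control cells, where 9.45% of the 10444 genes above 1 FPKM were. Another 11 (13.8%) were lower, where 15.5% of all genes were. For TME against control, 22 members (27.5%, against 4.85% of all genes) were higher and 3 (3.75%, against 11.6%) were lower. Between tumor and TME, 12 members (15%, against 4.56%) were higher in the tumor and 8 (10%, against 6.09%) were higher in the TME. Calls with 0 in the lower library make up 2 of the 24, 2 of the 11 and 1 of the 22. The median difference in log2 (FPKM + 1) over the 80 members was 0.19 for tumor minus control, against -0.09 over all genes, and 0.56 for TME minus control, against -0.15. For tumor minus TME it was 0, against 0.06. The comparisons share libraries, so their calls are not independent of each other. The median ratio of genes above 5 FPKM in both libraries was 1.06 for tumor to control and 0.964 for TME to control, but 1.14 for tumor to TME, a shift of 0.18 on the log2 scale. Relative to that shift 9 members and not 12 were higher in tumor than in TME cells.

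**Figure D1:**
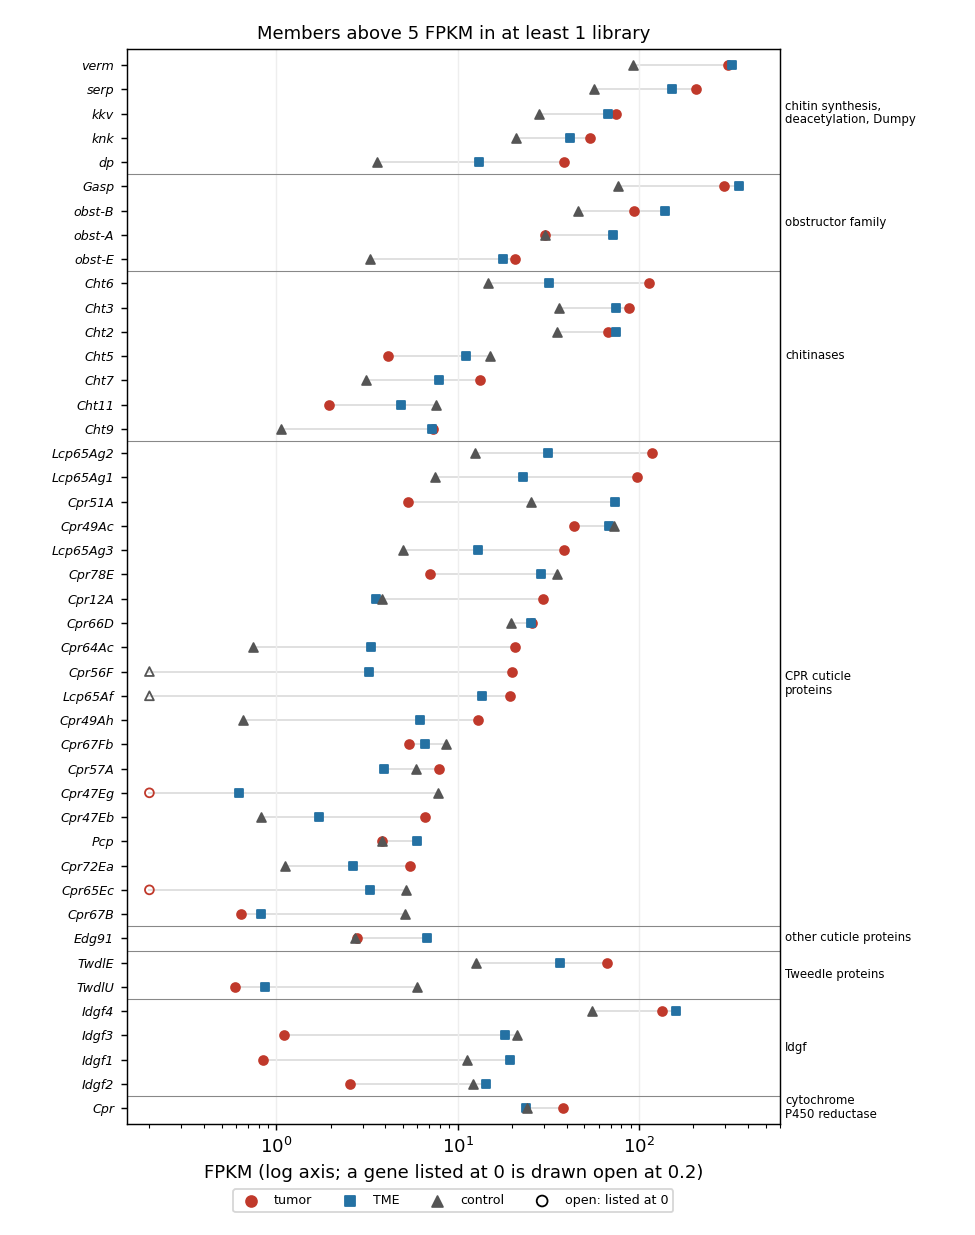
FPKM on a log axis of the 44 members above 5 FPKM in a library, grouped by family, with 1 point for each of the tumor, TME and control libraries and open points for genes listed at 0. The 5 genes of chitin synthesis, deacetylation and Dumpy have their lowest point in the control, whereas *Idgf1*, *Idgf2* and *Idgf3* have theirs in the tumor.

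The chitin synthase gene was higher in both libraries of the tumor-bearing discs, and its partner *knk* in the tumor. *krotzkopf verkehrt* (*kkv*, FBgn0001311), the chitin synthase of the epidermis and trachea, was at 75.2 FPKM in tumor, 67.2 in TME and 28.2 in control cells. The ratio to the control was 2.67 for the tumor (95% interval 2.31 to 3.09) and 2.39 for the TME (2.11 to 2.72). *knickkopf* (*knk*, FBgn0001321), which protects and organises newly made chitin, was at 53.5, 41.8 and 20.9 FPKM (tumor, TME and control, the order used from here on). The tumor was 2.56-fold above the control (2.01 to 3.29), and the TME, at 2.00-fold when rounded (1.62 to 2.50), lay just under the rule.

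The chitin deacetylases gave some of the highest levels of any member. *vermiform* (*verm*, FBgn0261341) was at 309 FPKM in tumor, 326 in TME and 93.3 in control cells. *serpentine* (*serp*, FBgn0260653), its partner in the tracheal lumen, was at 206, 152 and 56.2 FPKM. For *verm* the tumor was 3.32-fold (2.93 to 3.76) and the TME 3.49-fold (3.13 to 3.91) above the control, and tumor and TME lay within 1.05-fold of each other (0.988 to 1.12). For *serp* the ratios to the control were 3.67 (3.14 to 4.29) in the tumor and 2.71 (2.35 to 3.13) in the TME. Of the deacetylase genes outside the rule, *Cda4* was at 13.4, 57.1 and 21.3 FPKM and so highest in the TME, *Cda5* was at 5.74, 2.45 and 4.04, and *Cda9* did not reach 1 FPKM.

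Other genes of chitin synthesis moved in both directions. *mummy* (*mmy*), the pyrophosphorylase that makes the UDP-N-acetylglucosamine used by the synthase, was at 3.08 FPKM in tumor, 12.7 in TME and 23.6 in control cells, so that the control was 7.67-fold above the tumor (3.90 to 16.5). *Gfat2*, of the first step of that pathway, was at 19.5, 22.8 and 39.1 FPKM. *nesthocker* (*nst*), between them in the pathway, was at 20.7, 22.5 and 20.8. *expansion* (listed as *CG13188*), needed for chitin deposition in the trachea, was at 25.3, 17.6 and 3.05 FPKM, with a tumor to control ratio of 8.31 (4.90 to 16.1). Of the 8 genes of this list outside the rule, 3 were higher and 2 lower in tumor than in control cells, where 9.45% and 15.5% of all genes were. In the TME 2 were higher and none lower than in the control, where 4.85% and 11.6% of all genes were. In the tumor *kkv* and *knk* were called higher, and *mmy* and *Gfat2*, which supply the sugar, were called lower.

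The obstructor family, secreted proteins with chitin-binding domains, was led by *Gasp* (FBgn0026077), a matrix protein of the tracheal lumen and cuticle. *Gasp* was at 294 FPKM in tumor, 357 in TME and 76.5 in control cells, and its TME value was the highest of any member in any library. The tumor was 3.84-fold (3.25 to 4.54) and the TME 4.67-fold (4.01 to 5.44) above the control. *obst-B* was at 94.0, 140 and 46.3 FPKM, with a tumor to control ratio of 2.03 (1.56 to 2.70) that was 1.92 relative to the median ratio, and a TME to control ratio of 3.02 (2.43 to 3.84). *obst-A* (FBgn0031097), a scaffold that keeps the larval cuticle intact, differed from the others. It was at 30.4 FPKM in tumor, 72.4 in TME and 30.4 in control cells, so that only the TME library was high, at 2.38-fold over the tumor (1.82 to 3.12) and 2.38-fold over the control (1.82 to 3.14). *obst-E*, known for shaping the larval body through its cuticle, was at 20.7, 17.9 and 3.27 FPKM, with a tumor to control ratio of 6.33 (2.45 to 20.9) on about 5 fragments in the control. *obst-I*, the fifth member above 1 FPKM, was listed at 0 in all but the control.

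Several of these genes are known from the trachea, whose branches attach to discs. The tracheal regulators *trachealess* (*trh*) and *breathless* (*btl*) were low in every library, *trh* at 1.37, 1.24 and 2.97 FPKM and *btl* at 1.21, 1.79 and 2.19, and both were highest in the control. *uninflatable* (*uif*), an apical membrane protein of trachea and epidermis, was at 95.4 FPKM in tumor, 40.9 in TME and 16.9 in control cells. *piopio* (*pio*), also on the list of apical ZP-domain genes below, was at 193, 137 and 52.6 FPKM. Of the 5 genes of the tracheal list outside the rule, none of them at 0, *uif* and *pio* were called higher and none lower in each library of the tumor-bearing discs. All genes gave 9.45% higher in the tumor and 4.85% in the TME. The summed level of the 5 was 291, 181 and 74.8 FPKM, most of it from *uif* and *pio*. The part of tracheal cells in the values of *Gasp*, *verm*, *serp* and *obst-A* was not tested.

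Of the 10 chitinases, all were above 1 FPKM in some library and 7 above 5. *Cht6* (FBgn0263132) was at 113 FPKM in tumor, 32.0 in TME and 14.8 in control cells. The tumor library was high and the others lower, 7.68-fold (6.35 to 9.42) above the control and 3.54-fold (3.26 to 3.84) above the TME, and the TME was 2.17-fold (1.80 to 2.65) above the control. *Cht3* (named *Cht10* in the newer annotation), a large multi-domain chitinase, was at 87.9, 75.1 and 36.4 FPKM, 2.42-fold (2.16 to 2.70) and 2.06-fold (1.87 to 2.28) above the control in the tumor and the TME. *Cht2*, one of the chitinases that take part in forming the larval cuticle, was at 67.9, 74.7 and 35.4 FPKM, with a ratio to the control of 1.92 (1.49 to 2.48) in the tumor and 2.11 (1.70 to 2.62) in the TME. *Cht7*, another of these, was at 13.3, 7.90 and 3.11 FPKM, and *Cht9* was at 7.34, 7.24 and 1.06 with 2 fragments in the control. All 5 were lowest in the control.

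A pair of chitinases went the other way. *Cht5* (FBgn0038180), a main molting enzyme in other insects, was at 4.15 FPKM in tumor, 11.2 in TME and 15.1 in control cells. The control was 3.63-fold above the tumor (1.97 to 6.80), and the TME 2.70-fold (1.58 to 4.83). *Cht11* was at 1.95, 4.86 and 7.60 FPKM, with the control 3.89-fold above the tumor (1.40 to 13.3) on 5 fragments in the tumor. Counted together, 4 of 10 chitinases were higher and 2 lower in tumor than in control cells, where 9.45% and 15.5% of all genes were. In the TME 5 were higher and none lower than in the control, where 4.85% and 11.6% of all genes were. Of the hexosaminidases, which finish the breakdown of chitin to single sugars, *Hexo2* was at 1.64, 39.0 and 54.3 FPKM. The control was 33.1-fold above the tumor for that gene (14.7 to 90.1), on 6 fragments in the tumor. *Hexo1* at 33.1, 53.1 and 34.2 FPKM and *fused lobes* (*fdl*), which acts on the sugar chains of glycoproteins, at 17.8, 21.0 and 14.5 FPKM were not called in any comparison. Most hemocyte markers were also low in the tumor, and the 12 genes summed to 55.1, 632 and 571 FPKM. The part of hemocytes in the values of *Cht5*, *Cht11* and *Hexo2* was not tested.

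*dumpy* (*dp*, FBgn0053196) encodes a giant ZP-domain protein that ties epithelia to the overlying cuticle, and its shortest annotated transcript of 26263 nt collects many fragments. It was at 38.8 FPKM in tumor, 13.1 in TME and 3.61 in control cells, which stand for about 1839, 3737 and 165 fragments. The order was tumor, TME, control, with the tumor 10.8-fold above the control (9.16 to 12.7) and 2.97-fold above the TME (2.81 to 3.15), and the TME 3.62-fold above the control (3.09 to 4.25). Other ZP-domain genes of the apical matrix lie outside the rule. *piopio* (*pio*), a tracheal partner of Dumpy, was at 193, 137 and 52.6 FPKM, and *quasimodo* (*qsm*) at 117, 60.6 and 37.4. *neo* was at 43.4, 31.8 and 21.3 FPKM and *tyn* at 37.2, 17.6 and 21.2. Of 10 such genes without *dp*, 8 were above 1 FPKM. In the tumor 4 were higher and none lower than in the control, where 9.45% and 15.5% of all genes were. In the TME 1 was higher and none lower, where 4.85% and 11.6% were.

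**Figure D2:**
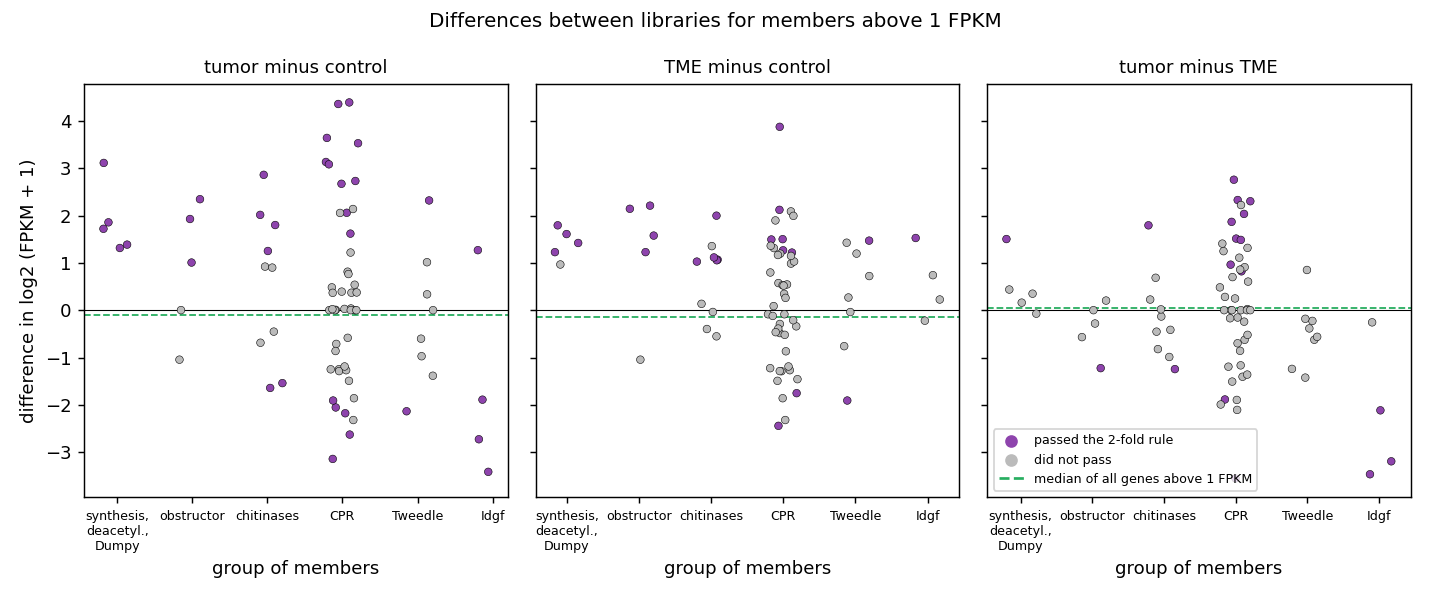
Differences in log2 (FPKM + 1) between libraries for members above 1 FPKM, 1 point per gene, in 3 panels by comparison and in columns by family, without *Edg91* and *Cpr*. Purple points passed the rule of 2-fold and 5 FPKM, and the dashed line is the median of all genes above 1 FPKM, at -0.09, -0.15 and 0.06; the CPR points lie on both sides of 0 in every panel.

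The CPR cuticle proteins, the largest family, held 97 members, of which 46 were above 1 FPKM and 20 above 5. Their summed level was 502 FPKM in tumor, 352 in TME and 255 in control cells. Most of the excess in the tumor came from a row of neighbouring genes on chromosome arm 3L. This Lcp65A group, defined by gaps of at most 20000 nt between members, holds 18 members with sums of 282 FPKM in tumor, 83.7 in TME and 30.1 in control cells. The other 79 CPR members summed to 221, 268 and 225 FPKM, with no excess in the tumor. Within the group 8 of 18 genes were above 1 FPKM and 8 were listed at 0 in all libraries, and those above 5 FPKM lay among the first 5 genes at one end of the row, with *Cpr65Au* between them.

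*Lcp65Ag2* (FBgn0020637), a larval cuticle protein, was at 118 FPKM in tumor, 31.5 in TME and 12.5 in control cells. The tumor was 9.38-fold above the control (4.75 to 21.4) and 3.73-fold above the TME (2.81 to 4.92). *Lcp65Ag1* (FBgn0020638) was at 97.4, 23.0 and 7.54 FPKM, which is 12.9-fold (5.36 to 42.0) and 4.23-fold (3.03 to 5.83) in the same order. *Lcp65Ag3* was at 38.9, 13 and 5.01 FPKM. The control values of *Lcp65Ag2*, *Lcp65Ag1* and *Lcp65Ag3* rest on about 9, 5 and 4 fragments. These 3 genes are close copies, so the authors' counting may have split reads among them, and each single value is uncertain. Their sum was 254, 67.5 and 25.1 FPKM. *Lcp65Af* was at 19.5 and 13.7 FPKM in the tumor and the TME and was listed at 0 in the control, where about 13.2 fragments would be expected at the level of the tumor. The genes at 0 include pairs of close copies, *Lcp65Ab1* with *Lcp65Ab2* and *Cpr65Ax1* with *Cpr65Ax2*.

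**Figure D3:**
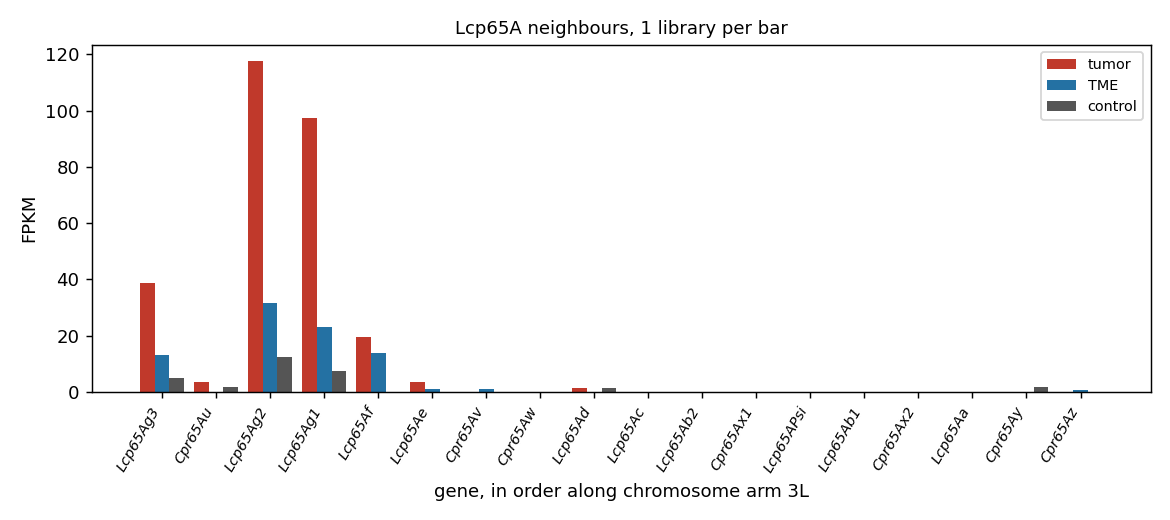
FPKM of the 18 Lcp65A neighbours in their order along chromosome arm 3L, with 1 bar for each library. The bars of *Lcp65Ag2* reach 118 FPKM in tumor, 31.5 in TME and 12.5 in control cells, and genes from *Lcp65Ae* on stay under 5 FPKM.

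Other CPR genes were highest in the tumor library. *Cpr12A* was at 29.7 FPKM in tumor, 3.54 in TME and 3.82 in control cells, 8.38-fold above the TME (5.07 to 14.4) and 7.77-fold above the control (2.98 to 24.7). *Cpr56F* was at 19.9 and 3.25 FPKM in the tumor and the TME, a ratio of 6.14 (3.88 to 9.82), and was listed at 0 in the control, where about 39.4 fragments would be expected at the level of the tumor. *Cpr64Ac* was at 20.7, 3.33 and 0.744 FPKM, with a tumor to TME ratio of 6.22 (3.56 to 10.9) and a tumor to control ratio of 27.9 that rests on 1 fragment in the control (4.61 to 1140). All 3 were near or below 4 FPKM outside the tumor. *Cpr49Ah* at 13, 6.21 and 0.658 FPKM, *Cpr47Eb* at 6.60, 1.72 and 0.826 and *Cpr72Ea* at 5.48, 2.67 and 1.11 followed the order tumor, TME, control, with 1, 1 and 2 fragments in the control. *Cpr57A* was at 7.91, 3.92 and 5.87 FPKM, and its tumor to TME ratio of 2.02 has an interval that holds 1 (0.699 to 4.64). Relative to the median ratio *Cpr49Ah*, *Cpr57A* and *Cpr72Ea* lay below 2-fold between tumor and TME, at 1.85, 1.78 and 1.81.

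A smaller set of CPR genes was low in the tumor. *Cpr51A* (FBgn0033942) was at 5.34 FPKM in tumor, 73.6 in TME and 25.4 in control cells. The TME was 13.8-fold above the tumor (5.63 to 41.0) and 2.90-fold above the control (1.91 to 4.65), and the control 4.75-fold above the tumor (1.69 to 15.3). The tumor value of *Cpr51A* rests on 5 fragments. *Cpr78E* was at 7.09, 28.9 and 35.6 FPKM, with the control 5.02-fold (1.70 to 20.2) and the TME 4.08-fold (1.52 to 15) above the tumor on 4 fragments in the tumor. *Cpr47Eg* at 0, 0.624 and 7.83 FPKM, *Cpr65Ec* at 0, 3.31 and 5.18 and *Cpr67B* at 0.636, 0.823 and 5.14 were called lower in tumor than in control cells. Those calls rest on at most 8 fragments in the control each. Of 7 markers of neurons and photoreceptors, none at 0, 5 were also low outside the control, among them *elav* at 6.79, 7.90 and 57.3 FPKM. Of all genes, 15.5% were lower in the tumor and 11.6% in the TME than in the control. The summed level of the 7 markers was 31.0, 47.8 and 214 FPKM. Those not low outside the control, named after their values were seen, were *gl* and *chp*. *gl* was at 16.1, 29.6 and 11.6 FPKM and so highest in the TME, and *chp* at 1.51, 1.81 and 1.92. Most hemocyte markers were low in the tumor but not in the TME. The part of these cell types in the CPR values was not tested.

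Abundant CPR genes without a call were also present. *Cpr49Ac* was the highest CPR gene of the control, at 43.9 FPKM in tumor, 68.4 in TME and 72.6 in control cells. The control to tumor ratio was 1.65 (1.27 to 2.16). *Cpr66D* was at 25.8, 25.4 and 19.8 FPKM, *Cpr67Fb* at 5.42, 6.60 and 8.63 and *Pcp*, a pupal cuticle protein gene that lies in an intron of another gene and is uncertain for that reason, at 3.85, 5.96 and 3.83, all with intervals of the tumor to control ratio that hold 1. Over the family, 10 of 46 genes were higher and 5 lower in tumor than in control cells, beside 9.45% and 15.5% of all genes. The TME had 6 higher and 2 lower than the control (4.85% and 11.6% of all genes), and the tumor 10 higher and 2 lower than the TME (4.56% and 6.09%). *Edg91*, an ecdysone-dependent gene of cuticle outside the CPR family, was at 2.79, 6.82 and 2.71 FPKM, and its call as higher in the TME rests on 2 fragments in each of the other libraries, with an interval of the TME to control ratio that holds 1 (0.629 to 21.3).

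Tweedle proteins form a second family of cuticle proteins that bind chitin. Its 26 members were mostly at or near 0, with 8 above 1 FPKM and 2 above 5. *TwdlE* (FBgn0031957) was at 66.7 FPKM in tumor, 36.6 in TME and 12.6 in control cells. It made up 88.5% of the family's summed FPKM in tumor cells and 43.6% in control cells, and stood 5.30-fold (3.46 to 8.23) above the control in the tumor and 2.91-fold (1.96 to 4.42) in the TME. *TwdlU*, which the newer annotation lists as a pseudogene, was at 0.592, 0.863 and 5.99 FPKM, with about 10 fragments in the control. Counting the remaining Tweedle genes above 1 FPKM, none passed the rule in any comparison.

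Genes of cuticle tanning, the cross-linking and coloring of a finished cuticle by dopamine derivatives, did not move as one. *ple* (tyrosine hydroxylase) was at 23.6 FPKM in tumor, 9.57 in TME and 8.49 in control cells, and *Ddc* (dopa decarboxylase) at 38.9, 48.4 and 17.7. *yellow* (*y*), needed for black pigment, was at 3.46, 12.1 and 58.8 FPKM, about 17-fold higher in the control than in the tumor (9.37 to 33.0). The tumor genotype carries a *y* mutation and a *y+* cassette, and the labels do not give the *y* allele of the control. *Dat*, an acetyltransferase of dopamine, was at 1.65, 2.03 and 19.9 FPKM. Of 8 tanning genes, 7 were above 1 FPKM. In the tumor 2 were higher and 2 lower than in the control, where 9.45% and 15.5% of all genes were. In the TME 2 were higher and 2 lower, where 4.85% and 11.6% were. Only *Ddc* was higher in both, and *y* and *Dat* were lower in both.

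Most regulators that time cuticle genes downstream of ecdysone were not called between tumor and control. *broad* (*br*) was at 79.7 FPKM in tumor, 123 in TME and 124 in control cells, and *crol* at 92.9, 81.1 and 101. *Eip75B*, an ecdysone-induced nuclear receptor, was at 20.7, 19.7 and 44.1 FPKM. *grainy head* (*grh*), an activator of epidermal barrier genes, was at 42.9, 36.5 and 19.9. Of 12 genes on the list, 2 were higher and 2 lower in tumor than in control cells, where 9.45% and 15.5% of all genes were. In the TME none was higher and 2 were lower than in the control, where 4.85% and 11.6% of all genes were.

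Among the Idgf genes, *Idgf4* and the rest behaved differently. *Idgf4* (FBgn0026415), on the X, was at 133 FPKM in tumor, 160 in TME and 54.8 in control cells. The tumor was 2.43-fold (1.98 to 2.99) and the TME 2.91-fold (2.44 to 3.48) above the control. *Idgf1*, *Idgf2* and *Idgf3*, which sit side by side on arm 2L, were low in the tumor and higher in the other libraries, with summed levels of 4.51, 52.0 and 44.8 FPKM. *Idgf3* (FBgn0020414) was at 1.10 FPKM in tumor, 18.2 in TME and 21.4 in control cells, 19.5-fold (6.31 to 96.9) and 16.5-fold (5.58 to 80.2) above the tumor in the control and the TME. The tumor value of *Idgf3* rests on 3 fragments. *Idgf1* was at 0.845, 19.4 and 11.2 FPKM, with the TME 23.0-fold (6.22 to 188) and the control 13.3-fold (3.32 to 115) above the tumor on 2 fragments in the tumor. *Idgf2* was at 2.56, 14.4 and 12.2 FPKM, 5.64-fold (2.39 to 14.6) and 4.76-fold (1.78 to 13.1) above the tumor in the TME and the control, on 6 fragments in the tumor. *Idgf5* was listed at 0 in all libraries.

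Most markers of hemocytes, blood cells that adhere to discs, were also low in the tumor. Of 12 hemocyte markers, none at 0 in any library, 10 were lower in tumor than in control cells, where 15.5% of all genes were. Against the TME 9 were lower in the tumor, where 6.09% of all genes were. The summed levels of the 12 were 55.1 FPKM in tumor, 632 in TME and 571 in control cells. *Hemese* (*He*) was at 3.15, 131 and 168 FPKM and *Hemolectin* (*Hml*) at 1.64, 68.2 and 25.7. The crystal cell prophenoloxidase *PO45* was at 1.02, 131 and 103, and the collagen gene *Cg25C*, also a product of fat body, at 6.14, 87.9 and 54.8. Fat body markers did not follow the order of most hemocyte markers. Over 8 genes, with *Lsp1alpha* at 0 in all libraries, they summed to 5.38 FPKM in tumor, 6.32 in TME and 57.8 in control cells. *Fbp1* was at 0, 0.139 and 19.0 FPKM and *Lsp2* at 0.253, 0 and 18.2. *Yp1* went the other way, at 4.61, 3.52 and 1.18 FPKM, and gave most of the sum in the tumor and the TME. The part of hemocytes and fat body in the Idgf values was not tested.

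**Figure D4:**
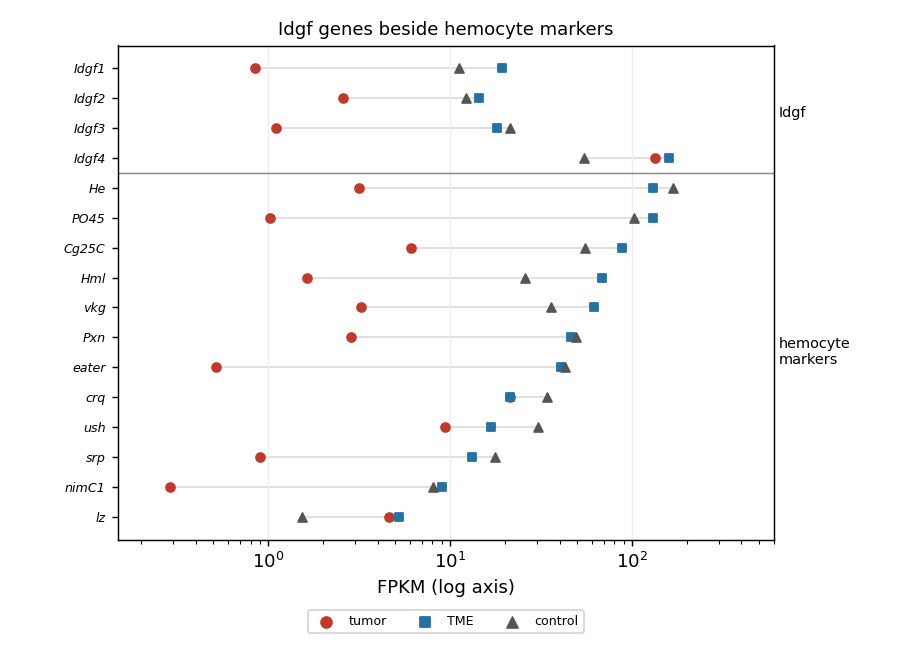
FPKM on a log axis of 4 Idgf genes and 12 hemocyte markers, with 1 point for each library. *Idgf1*, *Idgf2* and *Idgf3* lie at 0.845 to 2.56 FPKM in the tumor and at 11.2 to 21.4 in the others, and *Idgf4* lies at 54.8 in the control and above 100 in the tumor and the TME.

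Members between 1 and 5 FPKM numbered 36, and 21 of the 35 with a fragment estimate had fewer than 10 fragments in every library. The highest were *TwdlW* at 1.12, 2.26 and 4.53 FPKM, *Cpr67Fa1* at 0, 0 and 4.0, *Cpr11A* at 3.25, 3.79 and 1.42 and *Cpr65Au* at 3.66, 0 and 1.75. For *TwdlW*, *Cpr11A* and *Cpr65Au* the interval of the tumor to control ratio held 1, and *Cpr67Fa1* had about 3 fragments in the control. More members were above 0 in the TME, 95 against 78 (tumor) and 75 (control), and the TME library was 6.04 times as deep as that of the tumor and 6.27 times as deep as that of the control. The part of depth in these counts was not tested. Of the 80 members above 1 FPKM, 28 lie on arm 3L, 18 on 2R, 15 on 3R, 13 on 2L and 6 on the X. The *Ccp84A* and *Edg84A* neighbours on 3R, 8 genes in a row, did not reach 1 FPKM.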

How the data were processed

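RNA of FACS-sorted EAD cells was measured in 3 libraries, 1 each of tumor, TME and control. After TruSeq preparation and MiSeq sequencing, reads were mapped to *Drosophila* release 5.2 with the Tuxedo suite by the authors, who deposited FPKM values per gene. For the suite, version and annotation were not given in the sources read. The labels give Trizol extraction and the study's methods Qiagen kits. Columns were matched to samples by their headings, and 0 value columns were left unused. *RpL15*, which every cell uses, is listed at 0 in all libraries, so a 0 may be a failed estimate. No ratio to 0 is printed, but genes at 0 in the lower library could be called and are in the counts.

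Depth was fitted to the steps of low FPKM for genes with 1 transcript of 400 to 4000 nt. Of these low values, 83.4% (tumor), 78.6% (TME) and 82.1% (control) came within 0.1 of a whole fragment, where chance gives 20%. Fragments use the shortest transcript. Names, lengths, arms and gene order came from Ensembl release 115 (BDGP6), matched by ID for all 154 members. That is not the authors' build, so its coordinates served only for the order of genes and the gaps between neighbours, and none are printed. Ratios between FPKM were called at 2-fold and 5 FPKM. The steps were tested on simulated data.

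Every member above 5 FPKM was named, as were the 4 highest between 1 and 5 and at most 4 genes of each list outside the rule (chitin synthesis, deacetylation and degradation, apical ZP proteins, tanning, ecdysone regulators, and markers of trachea, hemocytes, fat body, muscle, neurons, glia and eye disc). For hemocytes, *crq* and *lz* were named besides. Members and lists were chosen with earlier results of these data known, and 2 wrong entries were removed from the lists after their values were seen. Python 3.11.15, numpy 2.4.6, scipy 1.17.1 and matplotlib 3.10.9 were used.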

Additional observations from a re-analysis of the deposited data

How the results depend on the processing

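No paired analysis was possible because each group has 1 library. For tumor against control, members called lower (11) became 24 with FPKM above 1, 6 with FPKM above 10 and 7 with at least 20 estimated fragments over both libraries. For TME against control, members called higher (22) became 9 at a ratio of 3 and 39 with FPKM above 1, and members called lower (3) became 5 at a ratio of 1.5, 14 with FPKM above 1, and 0 with FPKM above 10 or with 20 fragments. For tumor against TME, members called higher (12) became 7 at a ratio of 3 and 21 with FPKM above 1, and those called lower (8) became 5 and 22, so that with FPKM above 1 slightly more members were lower than higher in the tumor. The median difference went from 0.19 to 0.21 for tumor minus control and from 0.56 to 0.95 for TME minus control with a pseudocount of 0.1, and both were 0 over all 154 members, many at 0. Of 124 named ratios, 119 kept their side of the rule after scaling by the median ratio and 121 with a pseudocount of 1. The fragment minimum and leaving out *Cpr* were chosen after seeing the data, and the latter changed no count. Depth limits members on few fragments in the tumor and control libraries, which are most of those under 5 FPKM but not long genes such as *dp*.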
